A study of Mus musculus with 3 samples.

Results

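Gdf10 Inmt fibroblasts are Pdgfra-positive stromal cells that carried transcripts of both Gdf10 and Inmt. A cell counted as one when it had at least 1000 UMIs (unique molecular identifiers, 1 per captured molecule), under 20% mitochondrial UMIs, at least 1 UMI of Pdgfra, and 0 of Ptprc, the leukocyte gene for CD45, and of the endothelial gene Cdh5. It also needed at least 1 UMI each of Gdf10 and Inmt, at least 3 of both together, at most 2 UMIs of Pi16, and fewer than 5 UMIs of Mki67 and Top2a, genes of dividing cells. By this rule 118 cells were members, of 9118 cells in the same Pdgfra gate and 19707 barcodes in all. The cells came from quadriceps muscle of wildtype C57BL/6 mice at week 6 after volumetric muscle loss, the surgical removal of a piece of muscle, with the defect filled by particles of polycaprolactone (PCL), a degradable polyester. Dead cells were depleted, fractions with and without CD45 were separated on magnetic columns and recombined 1:1, and droplet libraries were made by 10x Genomics 3′ chemistry, version 3.1. There were 3 libraries of 1 group, named replicates 1, 2 and 3, and no uninjured or untreated group, so all comparisons were between classes of cells within these libraries. Whether the replicates were separate animals is not stated in the labels, so p-values cover only the variation among these 3 libraries, and that variation may be technical.

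Pdgfra marks the fibroblasts and fibro-adipogenic progenitors of skeletal muscle. These cells lie between the fibres and around vessels and nerves, supply growth factors to muscle stem cells, and produce collagen-rich matrix after injury. Gdf10 encodes a secreted ligand of the transforming growth factor beta (TGF-β) superfamily, also known as BMP3b. Inmt encodes indolethylamine N-methyltransferase, an enzyme that adds methyl groups to indole amines such as tryptamine.

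The stretches directly before the annotated start sites of Gdf10 and Inmt are shown because the cells were chosen by transcripts of these genes. Both were taken from RefSeq (mouse build GRCm38.p6) and run 5′ to 3′ over 250 bases, Gdf10 at chr14:33923337-33923586 on the plus strand and Inmt at chr6:55174991-55175240 on the minus strand. Each was searched on both strands for 4 motifs. These were AGGTCA, the half-site of many nuclear receptors, AGATAA, bound by GATA factors, GTAAACA, bound by forkhead factors, and TATAAA, the core promoter box.
Gdf10: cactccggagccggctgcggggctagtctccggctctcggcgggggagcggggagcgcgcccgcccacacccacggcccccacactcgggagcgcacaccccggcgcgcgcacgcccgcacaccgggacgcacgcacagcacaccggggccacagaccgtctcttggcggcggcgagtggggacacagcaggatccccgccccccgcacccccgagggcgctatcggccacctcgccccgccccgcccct
Inmt: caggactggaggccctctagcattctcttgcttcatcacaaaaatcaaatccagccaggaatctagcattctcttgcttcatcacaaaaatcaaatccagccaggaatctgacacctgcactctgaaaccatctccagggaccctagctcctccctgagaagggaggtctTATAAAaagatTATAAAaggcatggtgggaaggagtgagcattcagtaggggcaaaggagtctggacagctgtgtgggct
Capitals mark motif matches. The Inmt stretch held TATAAA at positions −80 and −69 from the start site, without overlap, and the Gdf10 stretch held none of the 4 motifs. Of 32851 RefSeq mouse promoters of the same length, counted with a single chromosome left out, 12.4% held TATAAA, 14.0% AGGTCA, 9.99% AGATAA and 3.17% GTAAACA. A match describes letters and was not tested as a binding site, and where the counted transcripts start was not measured.

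The members were 20, 57 and 41 cells in replicates 1, 2 and 3. Their share of Pdgfra-gated cells was 0.993%, 1.10% and 2.15%, or 1.41% ± 0.640 (SD, n = 3). Exact binomial 95% intervals, which cover counting error only, were 0.607% to 1.53%, 0.832% to 1.42% and 1.55% to 2.90%. Replicate 3 held the largest share, and its interval did not overlap those of the other 2 libraries. With the rule applied after every cell was thinned to 5000 UMIs, 64 of 7109 cells were members, at 0.554%, 0.735% and 1.69% in replicates 1, 2 and 3, in the same order. No barcode was shared between libraries among the members.

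The values that chose the members are given as a description. A member had a median of 9 Gdf10 UMIs (range 1 to 71) and 6 Inmt UMIs (range 1 to 65). The median Gdf10 count was 3, 8 and 16 UMIs in replicates 1, 2 and 3, and the median Inmt count was 8.5, 5 and 5 UMIs. Summed over cells, Gdf10 was at 465, 857 and 1065 CPM in Gdf10 Inmt fibroblasts, against 19.7, 37.8 and 50.2 CPM in other Pdgfra-gated cells. Inmt was at 931, 547 and 554 CPM in Gdf10 Inmt fibroblasts, against 17.2, 5.75 and 4.16 CPM in other Pdgfra-gated cells. CPM here is the usual scaling of UMIs to a common library total, with the totals adjusted by TMM, a method that balances composition between sums. Gdf10 was lowest and Inmt highest in the members of replicate 1.

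**Figure D1:**
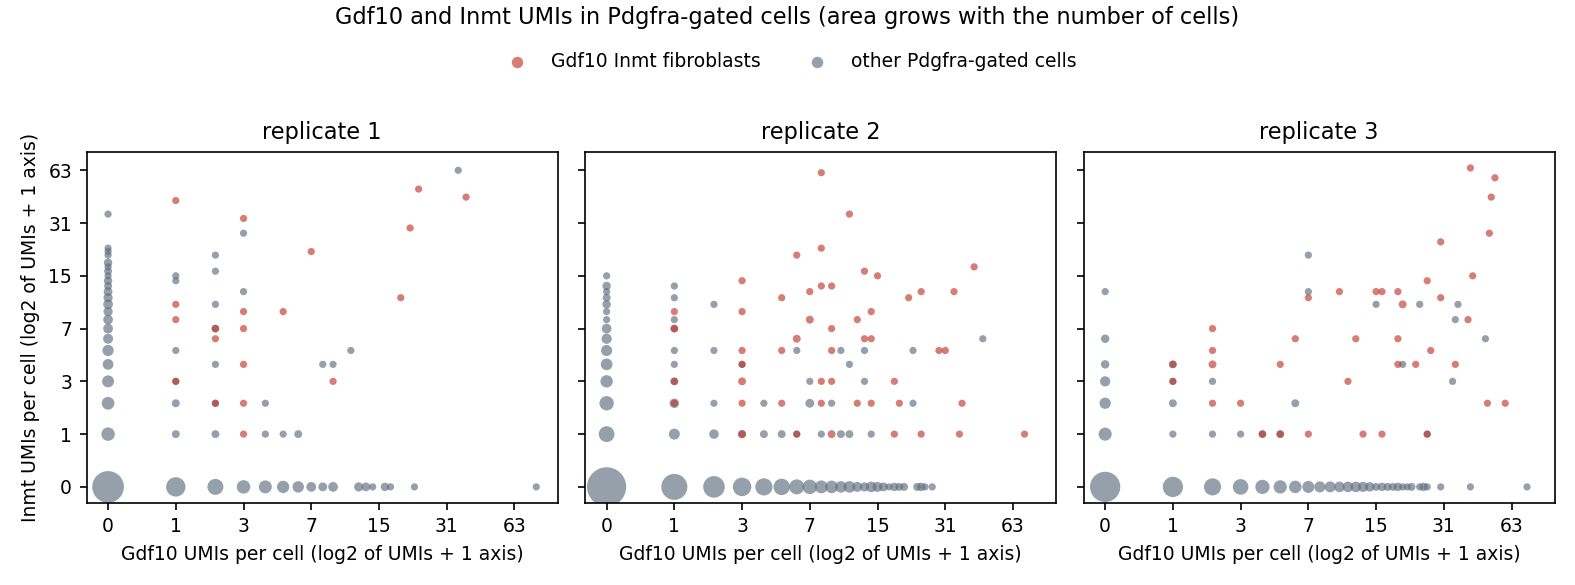
Gdf10 UMIs (horizontal axis, log2 of UMIs + 1) and Inmt UMIs (vertical axis, the same scale) per Pdgfra-gated cell, 1 panel per library, with Gdf10 Inmt fibroblasts in red, other Pdgfra-gated cells in grey, and dot area growing with the number of cells. Most grey cells, 5931 in all, had neither gene and lie at the origin, and grey cells with 1 gene only lie along the axes. Grey cells away from the axes failed another condition of the rule, mostly the limit of 2 Pi16 UMIs.

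Carrying both genes was rarer than carrying either alone. Gdf10 without Inmt was found in 2516 Pdgfra-gated cells and Inmt without Gdf10 in 435 cells. Among cells with Inmt, 22.2%, 37.3% and 51.6% also had Gdf10 in replicates 1, 2 and 3, against 22.0%, 30.9% and 34.7% of cells without Inmt. The shares were close in replicate 1 and further apart in replicate 3; they are a description, since both depend on the depth of each cell. The limit on Pi16 left out 102 cells that met every other condition. Those 102 cells had Apoe at 311 CPM and Fmo2 at 48.8 CPM, against 1187 and 165 CPM in the members (here per total UMIs, without TMM). Only 1 member lay on the threshold of 3 UMIs of Gdf10 and Inmt together, and 4 cells with 1 UMI of each lay just outside. That 1 member had 2631 CPM of the macrophage gene Lyz2 and 478 CPM of C1qa.

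Apoe and Fmo2, further genes of the label, were high in the members, and C7 was patchy. These genes are given without a test because the label was chosen with them. Apoe, which encodes the lipid carrier apolipoprotein E, was at 915, 1129 and 1539 CPM in Gdf10 Inmt fibroblasts, against 65.3, 93.3 and 100.0 CPM in other Pdgfra-gated cells. Fmo2, a flavin monooxygenase of foreign-compound metabolism, was at 189, 173 and 132 CPM in Gdf10 Inmt fibroblasts, against 7.38, 6.85 and 9.46 CPM in other Pdgfra-gated cells. Both genes were higher in every library with no overlap between the groups. C7, a component of the complement attack complex, was at 12.4, 203 and 104 CPM in Gdf10 Inmt fibroblasts, against 2.54, 2.75 and 4.64 CPM in other Pdgfra-gated cells. C7 was found in 46 of 118 members, and 61.1% of its UMIs lay in the 3 highest cells of each library, so this gene did not mark most members.

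**Figure D2:**
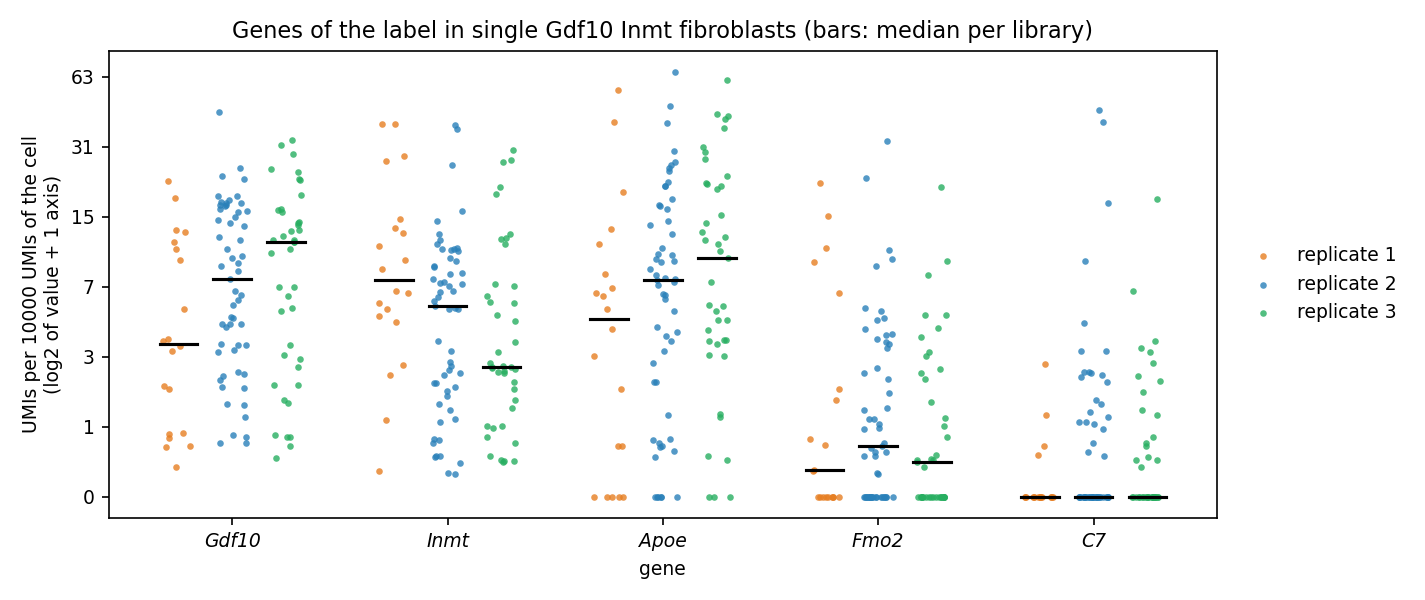
UMIs per 10000 UMIs of each member (vertical axis, log2 of value + 1) for the 5 genes of the label, with 1 point per cell, coloured by library, and a bar at each library's median. Gdf10, Inmt and Apoe are spread over the whole range, and the median of C7 is 0 in all 3 libraries.

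The label of fibroblasts was checked against markers of fibroblasts and of other cell types. The rule itself fixes Pdgfra, so it was left aside. The other 5 fibroblast markers (Col1a1, Col1a2, Col3a1, Dcn and Lum) were detected in the members of each library. Their summed level was 25060, 38986 and 32277 CPM in Gdf10 Inmt fibroblasts, below the 51286, 53387 and 57615 CPM of other Pdgfra-gated cells. None of the 5 adipocyte markers (Adipoq, Plin1, Cidec, Lep and Retn) had a UMI in any member. Of 6 endothelial markers 3 to 5 were detected, with summed levels of 12.7 to 16.8 CPM in the members and 11.1 to 16.9 CPM in other Pdgfra-gated cells, and Tie1 was at 0 in the members. Of 7 macrophage markers 4, 4 and 6 were detected in the members of replicates 1, 2 and 3, and they summed to 50.7, 70.9 and 65.9 CPM in Gdf10 Inmt fibroblasts, against 55.5, 34.1 and 55.2 CPM in other Pdgfra-gated cells, with Adgre1 at 0 in every member. C1qa, a complement chain of macrophages, was at 11.6 CPM in the members and 732 CPM in immune-gated cells, those with Ptprc. The part of macrophage RNA in Apoe, which was at 2483 CPM in immune-gated cells, was not tested. Mural markers summed to 79.3, 186 and 252 CPM in the members, against 68.0, 87.5 and 79.0 CPM in other Pdgfra-gated cells. Most of this sum was Abcc9, a potassium channel subunit, while Rgs5, the defining pericyte gene, had 1 UMI over all members. Of 5 Schwann cell markers 2, 2 and 3 were detected in the members, and they summed to 60.3, 18.03 and 46.9 CPM in Gdf10 Inmt fibroblasts, against 10.0, 13.9 and 16.2 CPM in other Pdgfra-gated cells, without overlap and with no test. Most of this sum was S100b, and Sox10, a defining factor of Schwann cells, was at 0 in every member. Tenocyte markers summed to 3.17, 86.6 and 19.01 CPM in the members, against 228, 196 and 134 CPM in other Pdgfra-gated cells. Muscle fibre markers were at 25.2 to 79.9 CPM in the members and 39.5 to 79.9 CPM in other Pdgfra-gated cells, and perineurial markers at 19.03 to 39.7 CPM in the members and 20.98 to 36.6 CPM in other Pdgfra-gated cells. Satellite cell and mesothelial markers stayed at or under 3.17 CPM in the members.

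**Figure D3:**
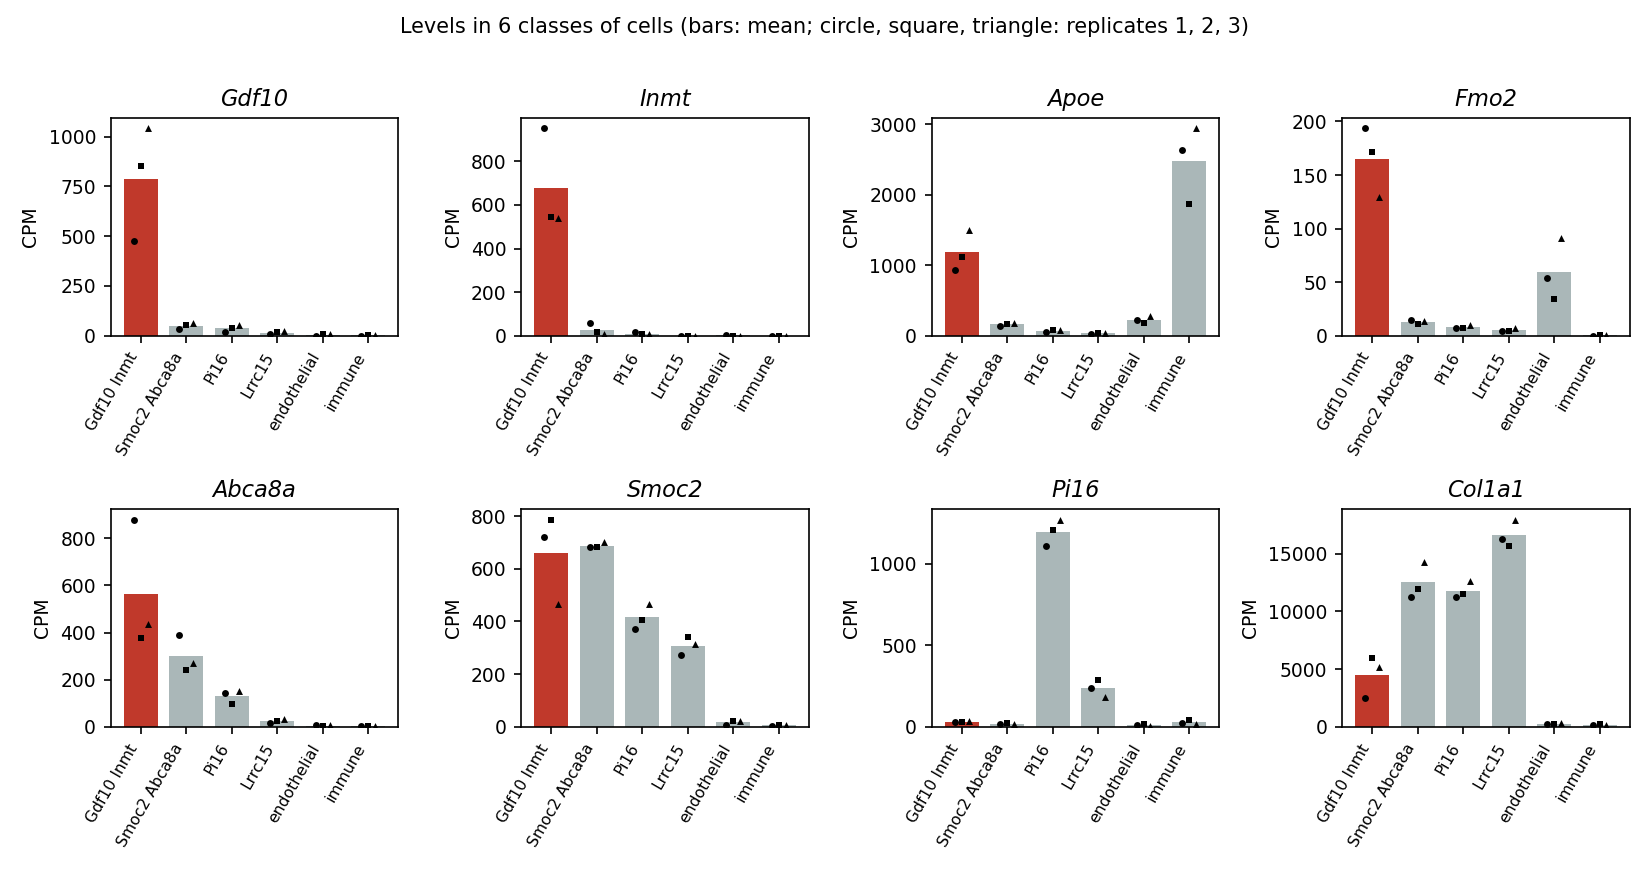
Levels per total UMIs (vertical axes, CPM) of 8 genes in 6 classes of cells, with bars for the mean of 3 libraries and a symbol for each library; Gdf10 Inmt fibroblasts are in red. Fmo2 was highest in Gdf10 Inmt fibroblasts among these classes, Apoe was higher still in immune-gated cells, and Smoc2 was about level with the Smoc2 Abca8a cells.

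Across classes, Fmo2 averaged 165 CPM in Gdf10 Inmt fibroblasts, 59.8 CPM in endothelial-gated cells and 13.1 CPM or less in the other classes. Smoc2 Abca8a cells were defined by at least 1 UMI each of Smoc2 and Abca8a, at least 3 together and at most 2 of Pi16. That limit on Pi16 is the same as in the rule for members. Of the 118 members, 88 also met that gate and were counted only as members. Abca8a, a lipid transporter, averaged 564 CPM in Gdf10 Inmt fibroblasts, 299 CPM in Smoc2 Abca8a cells, 131 CPM in Pi16 cells and 25.8 CPM in Lrrc15 cells. It averaged 788 CPM in cells with Inmt but no Gdf10, and 443 CPM in the 102 cells left out by the limit on Pi16. Smoc2, a matrix-associated calcium-binding protein, averaged 658 ± 168 CPM in Gdf10 Inmt fibroblasts and 688 CPM in Smoc2 Abca8a cells.

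UMIs summed over the members were compared in each library with those of the 9000 other Pdgfra-gated cells. edgeR's quasi-likelihood test was used, and a call needed both a p under 0.05 after Benjamini-Hochberg adjustment and a log2 difference of 1 or more in either direction. Of 14916 genes tested, 602 were higher (4.04%) and 644 lower (4.32%) in Gdf10 Inmt fibroblasts, together 8.35%. The groups did not overlap over the 3 libraries for 38.3% of genes, so a gene without overlap was common. Of the 644 lower genes, 66 had 0 UMIs in the members. Depth differed between the groups, with medians of 13892, 13108 and 19905 UMIs per member in replicates 1, 2 and 3, against 31440, 24885.5 and 28889 UMIs per other cell. With reference cells drawn to the members' depth, 487 genes were called of 9595 tested (5.08%), 249 higher (2.6%) and 238 lower (2.48%). The cause of the loss was not tested, and named genes that lost their call are given with that value below. Some named genes were not among the genes tested at matched depth and have no such value. Small p-values below rest on a spread that edgeR pools over genes, and on as few as 20 cells in replicate 1.

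The largest positive differences included neural and hormone genes that few cells carried. Gria4, an AMPA-type glutamate receptor subunit, was at 77.6, 121 and 165 CPM in Gdf10 Inmt fibroblasts, against 2.78, 2.50 and 4.09 CPM in other Pdgfra-gated cells. All 3 libraries were higher without overlap, with a log2 difference of 5.31 (SE 0.21, adjusted p = 2.02e-133; 4.54 at matched depth). Gria4 was found in 36 of 118 members. With every cell thinned to 5000 UMIs it was in 22.7% of 110 members, against 1.08% of 8832 other cells, and in at most 0.468% of immune-gated cells in any library. Dlgap1, a scaffold protein of excitatory synapses, was at 96.2, 161 and 145 CPM in Gdf10 Inmt fibroblasts, against 6.81, 7.84 and 5.87 CPM in other Pdgfra-gated cells (log2 difference 4.32), and was found in 39 members. Nxph1, a secreted ligand of neurexins, led by size at 248, 24.2 and 66.2 CPM in Gdf10 Inmt fibroblasts, against 0.608, 1.07 and 1.15 CPM in other Pdgfra-gated cells. Its log2 difference of 6.37 was 5.21 without replicate 1, 7.22 without replicate 2 and 5.33 at matched depth, and 77 of its 80 UMIs in replicate 1 came from 1 cell. The Schwann cell markers given above also summed to more in the members, with Sox10 at 0, and their part in these neural genes was not tested.

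Of the other leading genes, Vit was spread over more members. Vit, the matrix protein vitrin, was at 192, 149 and 108 CPM in Gdf10 Inmt fibroblasts, against 9.19, 5.81 and 9.55 CPM in other Pdgfra-gated cells, and 64 of 118 members had it. It was higher in 3 of 3 libraries, with a log2 difference of 4.20 (SE 0.19, adjusted p = 8.80e-108). With depth-matched reference cells the log2 difference was 2.73, still called. Prdm6, a transcriptional repressor of the PRDM family, had a log2 difference of 4.41 (40.3, 43.6 and 50.6 CPM in the members), Slc16a7, a monocarboxylate transporter, of 4.94, and Stc1, the hormone stanniocalcin 1, of 4.32. At matched depth these were 3.45, 3.35 and 3.69, all still called. Prdm6 was found in 36 of 118 members, Slc16a7 in 23 and Stc1 in 17. For Stc1, 83.0% of the UMIs lay in the 3 highest cells of each library. Hhip, a decoy for hedgehog ligands, was at 24.8, 18.2 and 19.5 CPM in Gdf10 Inmt fibroblasts, against 0.208, 0.342 and 0.958 CPM in other Pdgfra-gated cells (log2 difference 5.49, 6.16 without replicate 3 and 4.04 at matched depth). Only 11 members had Hhip. Plcxd3, with a phospholipase-type domain, had a log2 difference of 4.16 that lost its call without replicate 2 (2.68).

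Gsn and Sparcl1, abundant genes outside the lists, were chosen after their values were seen. Gsn, the actin-severing protein gelsolin, was at 22230.2, 15782 and 14506 CPM in Gdf10 Inmt fibroblasts, against 4228, 3728 and 3885 CPM in other Pdgfra-gated cells (log2 difference 2.13, SE 0.12, adjusted p = 4.93e-72). Sparcl1, a matricellular relative of Sparc, was at 527, 394 and 454 CPM in Gdf10 Inmt fibroblasts, against 58.6, 45.7 and 49.3 CPM in other Pdgfra-gated cells (log2 difference 3.16, SE 0.16, adjusted p = 1.60e-86). Both were higher in every library, and with depth-matched reference cells stayed called at 1.03 and 1.97. By counts Gsn was among the most abundant transcripts of these cells and exceeded Col1a1 in all 3 libraries, although counts of different genes are not scaled to length.

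The largest negative differences were in genes almost without UMIs in the members. Bmp6, a bone morphogenetic protein, and Olfr810, an olfactory receptor, had 0 UMIs over all members, against 23.6, 16.1 and 21.9 CPM and 22.7, 21.9 and 28.8 CPM in other Pdgfra-gated cells. A count of 0 allows up to 3 over the group, so both were at least 12.5-fold and 15.3-fold lower. These bounds and the ratio that follows were taken without matching on depth. No value at matched depth is given here for the genes of 0 to 2 UMIs or for Aqp1. Tnfrsf11b, the decoy receptor osteoprotegerin, had 1 UMI in the members, a ratio of 0.0154 with a counting interval of 0.000389 to 0.0857. Tnn (tenascin N), Cryaa (a crystallin), Dio2 (a deiodinase of thyroid hormone) and Ctla2a (an inhibitor of cathepsin) also had 1 UMI each, and F2rl1, a protease-activated receptor, had 2 UMIs; the call of Ctla2a was lost without the library as a block. Brinp3, a neural gene of the BRINP family, was at 3.1, 14.5 and 7.78 CPM in Gdf10 Inmt fibroblasts, against 487, 364 and 305 CPM in other Pdgfra-gated cells. It was lower in 3 of 3 libraries (log2 difference −5.22, SE 0.24, adjusted p = 3.08e-99), and −5.86 without replicate 2 or −4.27 with depth-matched reference cells. Adgrb3, an adhesion receptor, and Serpinb2, an inhibitor of plasminogen activators, had 5 UMIs each in the members and log2 differences of −5.23 and −5.17; without replicate 3 the first was −6.87, and at matched depth they were −3.67 and −3.39. Aqp1, a water channel, had 4 UMIs, all in replicate 2.

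**Figure D4:**
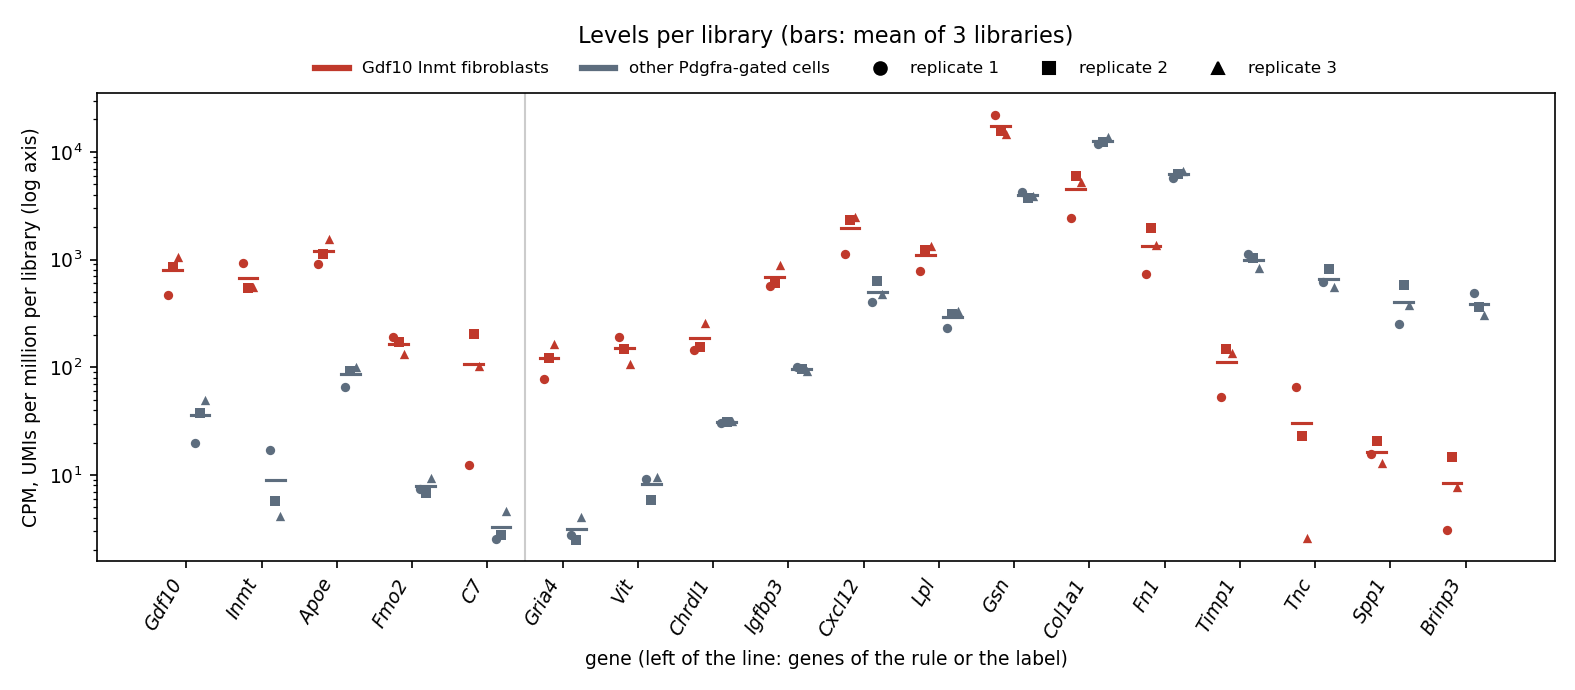
CPM per library on a log axis for Gdf10 Inmt fibroblasts (red) and other Pdgfra-gated cells (grey), with a symbol per replicate and a bar at the mean of 3 libraries; genes left of the line belong to the rule or the label. Right of the line, every red symbol lies above the grey ones for Gria4 to Gsn and below them for Col1a1 to Brinp3.

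Gene lists are described by counts of called members and by the median log2 difference over the list, beside −0.07 over all 14916 genes. Counts at matched depth, in the same order, use the depth-matched reference cells (median −0.01 over 9595 genes). Each list count stands beside the share over all genes, of which 4.04% were higher and 4.32% lower. At matched depth those shares were 2.6% and 2.48%. In the TGF-β superfamily, 15 ligands other than those at too low counts were tested, with Gdf10 left aside as a gene of the rule; 2 were higher and 6 lower (median −1.28), against 0 and 3 of 9 at matched depth. Bmp4 was at 55.8, 29.0 and 11.7 CPM in Gdf10 Inmt fibroblasts, against 6.43, 4.43 and 6.64 CPM in other Pdgfra-gated cells (log2 difference 2.31), and Bmp5 differed by 1.60; with depth-matched reference cells both calls were lost (0.64 and 0.05). Tgfb2, an isoform that drives fibrosis, was lower at 58.9, 110.1 and 37.6 CPM in Gdf10 Inmt fibroblasts, against 139, 203 and 176 CPM in other Pdgfra-gated cells (log2 difference −1.39, adjusted p = 1.14e-12, not called at −0.84 with thinned cells). Tgfb1 differed by −1.47 and lost its call at matched depth (−0.89). Of 12 receptors 2 were higher and 2 lower (median 0.27), against 0 and 1 of 11 at matched depth. Acvr2a, a type II receptor for activins and BMPs, was at 180.0, 159 and 135 CPM in Gdf10 Inmt fibroblasts, against 62.0, 52.7 and 51.9 CPM in other Pdgfra-gated cells (log2 difference 1.50, 0.98 at matched depth and not called). Bmpr1b had a log2 difference of −2.39 (−0.96 at matched depth, not called), Tgfbr2 of −1.10 (−0.94 without replicate 1, not called), and Eng, the coreceptor endoglin, of 1.24 (0.88 at matched depth, not called).

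Antagonists of BMPs and activins were among the higher genes. Of 14 antagonists and latent TGF-β proteins 6 were higher and 1 lower (median 0.51), against 4 and 0 of 11 at matched depth. Chrdl1, which binds and blocks BMPs, was at 146, 154 and 258 CPM in Gdf10 Inmt fibroblasts, against 30.6, 30.9 and 32.0 CPM in other Pdgfra-gated cells. The sums did not overlap (log2 difference 2.56, SE 0.17, adjusted p = 1.93e-48). Fst, follistatin, which binds activins and myostatin, was at 437, 370.3 and 368 CPM in Gdf10 Inmt fibroblasts, against 72.1, 115 and 98.5 CPM in other Pdgfra-gated cells (log2 difference 2.05, SE 0.15, adjusted p = 2.55e-38, and 1.08 at matched depth, still called). Bambi, a decoy receptor, had a log2 difference of 2.24 (1.46 at matched depth) and was not called with cells thinned to 5000 UMIs (1.68). Bmper, which modulates BMPs, differed by 1.11 and Ltbp4, a latent TGF-β binding protein, by 1.70; at matched depth neither was called (0.78 and 0.78), nor was Bmper without replicate 3 (0.95). Ltbp2 had 5 UMIs in the members, all in replicate 3 (log2 difference −2.69, not called without replicate 2 at −1.76).

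Of 12 target genes of BMP and TGF-β signalling 5 were higher and 1 lower (median 0.46), against 3 and 0 of 10 at matched depth. Id3, an inhibitor of DNA binding induced by BMPs, was at 1002, 909.9 and 1139 CPM in Gdf10 Inmt fibroblasts, against 228, 299 and 287 CPM in other Pdgfra-gated cells, higher in 3 of 3 libraries (log2 difference 1.91, SE 0.14, adjusted p = 3.39e-40). Id4 differed by 2.30 and Id2 by 1.22, and Id2 was not called at matched depth (0.89, against 1.67 for Id4). Tgfbi, a matrix protein induced by TGF-β, was at 264, 385 and 329.5 CPM in Gdf10 Inmt fibroblasts, against 99.4, 121 and 121 CPM in other Pdgfra-gated cells (log2 difference 1.51).

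Called enzymes for foreign compounds and redox balance were all higher. Of 21 tested, 12 were higher and 0 lower (median 1.31), a count that includes Fmo2 of the label; at matched depth 4 of 18 were higher and 0 lower (median 0.79). Aox3, an aldehyde oxidase, was at 102, 14.5 and 45.4 CPM in Gdf10 Inmt fibroblasts, against 6.54, 4.88 and 5.23 CPM in other Pdgfra-gated cells (log2 difference 3.00, adjusted p = 4.02e-20, 2.32 at matched depth). Cyp1b1, a cytochrome P450, was at 217, 177 and 227 CPM in Gdf10 Inmt fibroblasts, against 92.3, 83.5 and 66.4 CPM in other Pdgfra-gated cells (log2 difference 1.37). Both were higher in 3 of 3 libraries without overlap. Gstm1, a glutathione transferase, differed by 1.76, Gstt1, another, by 1.50, Aox1 by 1.79, Aldh2, the mitochondrial aldehyde dehydrogenase, by 1.12 and Selenop, a selenium carrier, by 1.08. At matched depth none of these 5 was called (0.86, 0.82, 0.87, 0.70 and 0.85), and Selenop was not called without replicate 3 (0.95). Hsd11b1, which activates glucocorticoids, differed by 1.94 (1.28 at matched depth) and was not called without replicate 2 (1.36). Sod3, an extracellular superoxide dismutase, had the smallest value of the list (−0.27) and did not pass.

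Among 11 methyltransferases and amine enzymes tested beside Inmt, 2 were higher and 0 lower (median 0.24), against 2 and 0 of 8 at matched depth. Maob, a monoamine oxidase, was at 58.9, 23.0 and 53.2 CPM in Gdf10 Inmt fibroblasts, against 11.2, 10.2 and 10.6 CPM in other Pdgfra-gated cells (log2 difference 1.98, 1.13 at matched depth, still called). Aoc3, a vascular amine oxidase, differed by 1.22 and was not called with thinned cells (0.94). Of 14 retinoid genes 5 were higher and 4 lower (median 0.31), against 3 and 2 of 11 at matched depth. Adh1, an alcohol dehydrogenase that also oxidises retinol, was at 80.7, 83.5 and 57.1 CPM in Gdf10 Inmt fibroblasts, against 8.18, 6.30 and 7.60 CPM in other Pdgfra-gated cells (log2 difference 3.33, SE 0.23, adjusted p = 4.53e-43, 2.18 at matched depth). Cyp26b1, which degrades retinoic acid, was at 68.3, 6.05 and 49.3 CPM in Gdf10 Inmt fibroblasts, against 9.72, 3.99 and 7.41 CPM in other Pdgfra-gated cells, a call (2.32, 1.14 at matched depth) with replicate 2 of the members inside the range of the other cells. Crabp2, a retinoic acid binding protein, was at 0, 8.47 and 3.89 CPM in Gdf10 Inmt fibroblasts, against 109, 91.1 and 83.6 CPM in other Pdgfra-gated cells (log2 difference −4.15, −5.10 without replicate 2 and −2.61 at matched depth).

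Called complement and lipid genes were mostly higher. Of 16 complement genes 7 were higher and 1 lower (median 0.78), C7 of the label included, against 5 and 1 of 13 at matched depth. C3, the central component, was at 5318, 7415 and 7137 CPM in Gdf10 Inmt fibroblasts, against 2979.9, 3257 and 2809.7 CPM in other Pdgfra-gated cells (log2 difference 1.12), and C4b differed by 1.16. Neither was called at matched depth (0.85 and 0.92) or without replicate 3 (0.99 and 0.92). C2 (1.51), clusterin Clu (1.96) and vitronectin Vtn (2.85) kept their calls in those fits, with 1.18 for Clu and 1.67 for Vtn at matched depth. Vtn was at 62.1, 99.2 and 117 CPM in Gdf10 Inmt fibroblasts, against 12.5, 13.1 and 13.8 CPM in other Pdgfra-gated cells. Cd55, which protects cells from complement, was lower at 58.9, 25.4 and 72.7 CPM in Gdf10 Inmt fibroblasts, against 208, 216 and 234 CPM in other Pdgfra-gated cells (log2 difference −2.16, adjusted p = 9.91e-28).

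Of 19 lipid-handling genes 10 were higher and 1 lower (median 1.02), with Apoe of the label among the 10, against 3 and 1 of 18 at matched depth (median 0.35). Lpl, lipoprotein lipase, was at 782, 1238 and 1323 CPM in Gdf10 Inmt fibroblasts, against 230.5, 311 and 332 CPM in other Pdgfra-gated cells, higher in 3 of 3 libraries (log2 difference 1.92, SE 0.14, adjusted p = 3.17e-41). Immune-gated cells had more Lpl still, at 2840 CPM against 1107 CPM in the members, per total UMIs. G0s2, an inhibitor of fat breakdown, differed by 1.97 (1.12 at matched depth). Abca8a (2.12), Abca8b (1.49) and the lipocalin Apod (1.09) lost their calls at matched depth (0.82, 0.13 and 0.51), and Abca8b also without replicate 1 (0.85) and Apod without replicate 2 (0.97). Ptgis, prostacyclin synthase, was lower at 12.4, 24.2 and 13.0 CPM in Gdf10 Inmt fibroblasts, against 75.1, 73.1 and 78.2 CPM in other Pdgfra-gated cells (−2.11). Of 11 adipogenic regulators 6 were higher and 0 lower (median 1.07), and at matched depth none of 7 was called (median 0.27). Pparg, the master regulator of fat cells, rested on 22 UMIs, at 37.2, 9.68 and 2.59 CPM in Gdf10 Inmt fibroblasts, against 1.60, 2.25 and 2.98 CPM in other Pdgfra-gated cells (2.46, not called without replicate 1 at 1.26, 3.30 without replicate 3, and 1.55 and not called with thinned cells). Cebpd, an early adipogenic factor that also responds to stress, differed by 1.20 (0.76 at matched depth, not called).

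**Figure D5:**
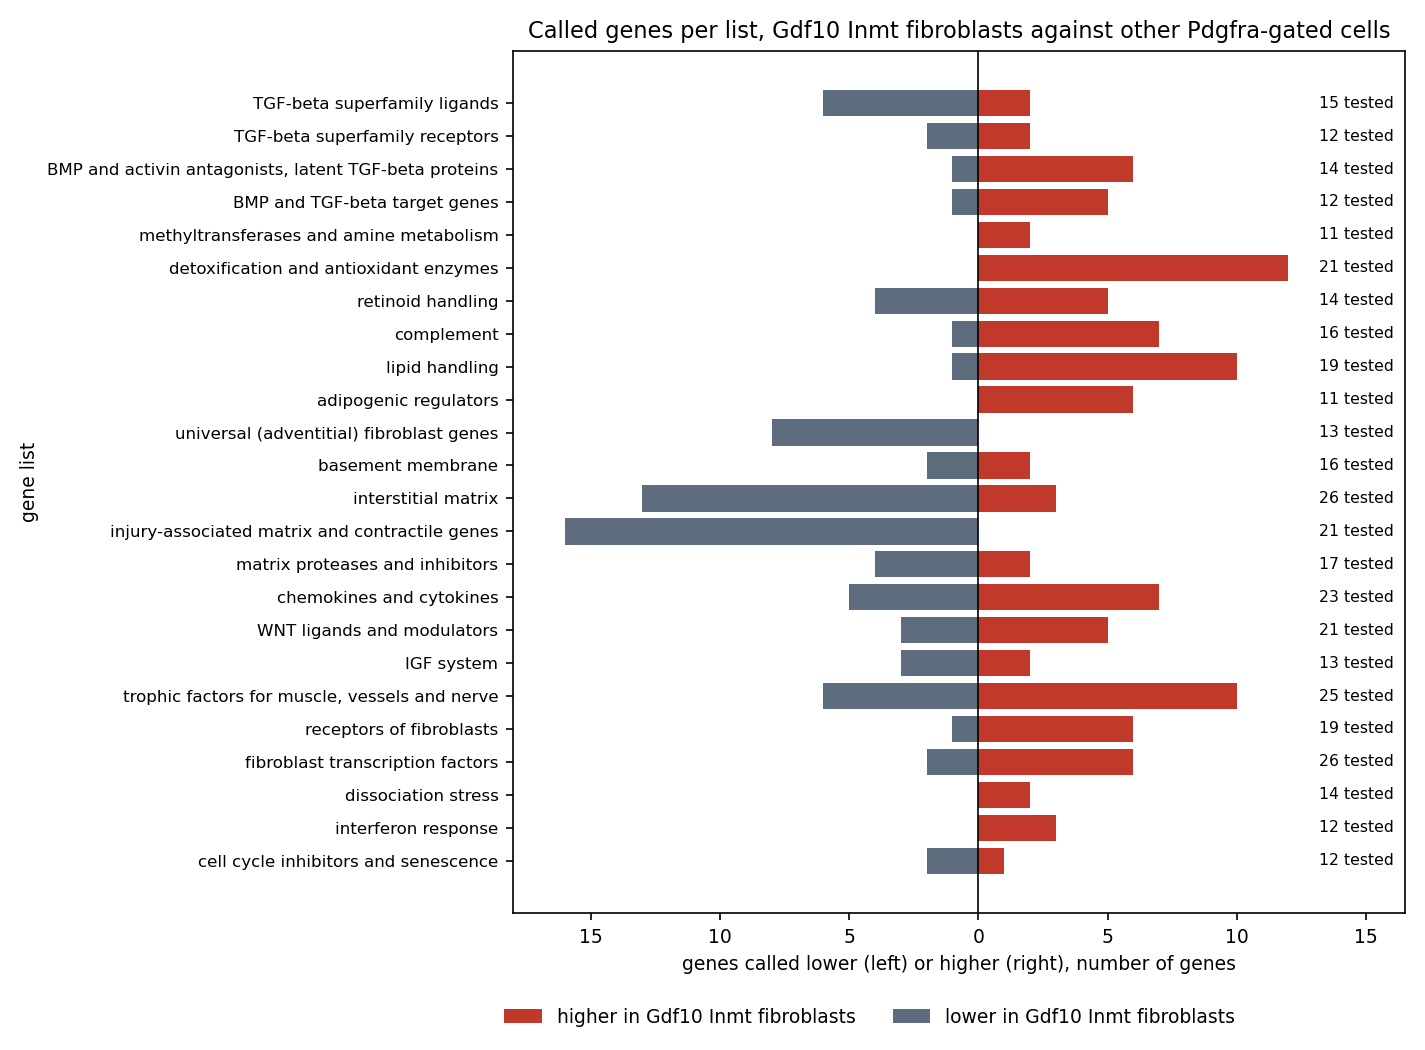
Number of genes called higher (right, red) or lower (left, grey) in Gdf10 Inmt fibroblasts than in other Pdgfra-gated cells (horizontal axis), for each gene list (vertical axis), with the number tested at the right. Over all genes tested, 4.04% were higher and 4.32% lower. Detoxification enzymes have 12 genes to the right and 0 to the left, and injury-associated genes 0 to the right and 16 to the left; with reference cells at matched depth these counts were 4 and 0, and 0 and 13.

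Genes of injury matrix were lower. Of 21 injury-associated matrix and contractile genes 16 were lower and 0 higher (median −2.34), where 4.32% of all genes were lower; at matched depth 13 of 20 were lower and 0 higher (median −1.61). Tnc, the wound matrix protein tenascin C, was at 65.2, 23.0 and 2.59 CPM in Gdf10 Inmt fibroblasts, against 621, 821 and 557 CPM in other Pdgfra-gated cells (log2 difference −4.88, −5.78 without replicate 1, −4.29 without replicate 3 and −2.81 at matched depth). Spp1, osteopontin, was at 15.5, 20.6 and 13.0 CPM in Gdf10 Inmt fibroblasts, against 255, 582 and 382 CPM in other Pdgfra-gated cells (log2 difference −4.71, SE 0.23, adjusted p = 3.39e-92, −3.08 at matched depth). Timp1, an inhibitor of metalloproteinases, was at 52.7, 149 and 135 CPM in Gdf10 Inmt fibroblasts, against 1123, 1041 and 833 CPM in other Pdgfra-gated cells (log2 difference −3.09, −1.61 at matched depth). These 3 genes stayed called in every refit named here, with the members lower in each library. Postn, periostin, was uneven, at 18.6, 692 and 339 CPM in Gdf10 Inmt fibroblasts, against 1385, 1569 and 1750.1 CPM in other Pdgfra-gated cells. Its log2 difference of −2.49 was −1.76 without replicate 1 and −3.48 without replicate 2, and DESeq2 did not call it (−2.98). Cthrc1, a secreted protein of activated fibroblasts, differed by −3.29 (−5.07 without replicate 2), Lrrc15, of matrix-producing fibroblasts, by −4.15 (−5.49 without replicate 2), Acta2, smooth muscle actin, by −3.57 and Col8a1, a short-chain collagen, by −3.25. At matched depth these 4 stayed called at −2.32, −2.54, −1.81 and −2.58. Aspn, a small proteoglycan (−2.16), and Loxl2, which crosslinks collagen (−1.89, −1.11 at matched depth), were also lower. Comp, a matrix protein of cartilage and scars, had the highest value of the list (0.23) and did not pass; its sign turned without replicate 3 (−0.12) and at matched depth (−0.28).

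Of 26 interstitial matrix genes 13 were lower and 3 higher (median −0.92), against 2 lower and 1 higher of 26 at matched depth (median −0.54). Col1a1, which encodes the alpha 1 chain of collagen I, was at 2411, 6009 and 5283 CPM in Gdf10 Inmt fibroblasts, against 11915, 12341 and 13662 CPM in other Pdgfra-gated cells, lower in 3 of 3 libraries (log2 difference −1.56, SE 0.12, adjusted p = 4.24e-38). At matched depth the difference fell short of the threshold at −0.90, as did those of Col1a2 (−1.42, then −0.82), Col3a1 (−1.31, then −0.60), Col5a3 (−1.82, then −0.86), Col6a1 (−1.14, then −0.37), Col6a3 (−1.46, then −0.69) and Sparc (−1.28, then −0.63). Fn1, fibronectin, stayed called, at 735, 1955 and 1356 CPM in Gdf10 Inmt fibroblasts, against 5771, 6212 and 6594 CPM in other Pdgfra-gated cells (log2 difference −2.29, SE 0.13, adjusted p = 3.29e-69). Mfap5, a microfibril protein, also stayed called (−1.49), and Fbn1, fibrillin 1, did not (−1.10, then −0.996). In the other direction, Fbln1, fibulin 1, was at 515, 727 and 915 CPM in Gdf10 Inmt fibroblasts, against 259, 273 and 245 CPM in other Pdgfra-gated cells (1.45), and Fbln5 differed by 1.13 (0.55 at matched depth, not called). Dcn, the proteoglycan decorin, was at 13217, 13698 and 11989 CPM in Gdf10 Inmt fibroblasts and 7036, 7588 and 7259.5 CPM in other Pdgfra-gated cells, a log2 difference of 0.83 under the threshold. Low Col1a1 was not particular to the members. Per total UMIs it averaged 4532 CPM in members, 4650 CPM in cells with Inmt but no Gdf10, and 5308 CPM in the 102 cells over the Pi16 limit. Cells with Gdf10 but no Inmt had 13744 CPM of Col1a1, and cells with neither gene had 12688 CPM.

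Of 13 genes of the universal, adventitial type of fibroblast tested beside Pi16, 8 were lower and 0 higher (median −1.73), against 7 and 0 of 12 at matched depth (median −1.75). This list runs close to the rule, which limits Pi16. Sema3c, a semaphorin, was at 74.5, 88.3 and 132 CPM in Gdf10 Inmt fibroblasts, against 356, 289.6 and 398 CPM in other Pdgfra-gated cells (log2 difference −1.80, adjusted p = 8.65e-25). Dpp4, a membrane peptidase, differed by −1.73, Anxa3, an annexin, by −1.90, Efhd1, a calcium-binding protein, by −2.76, and Cd248, endosialin, by −1.23. At matched depth Dpp4 was −2.34, Anxa3 −2.51 and Efhd1 −3.69. Efhd1 rested on 12 UMIs in the members. Procr, the protein C receptor, had the highest value (0.55, and −0.28 at matched depth) and was not called.

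Basement membrane genes were split. Of 16 tested, 2 were higher and 2 lower (median 0.34), and at matched depth none of 15 was called. Col18a1 was at 34.1, 90.8 and 55.8 CPM in Gdf10 Inmt fibroblasts, against 246, 249 and 288 CPM in other Pdgfra-gated cells (−2.07, −0.89 at matched depth and not called). Col4a4, a chain of type IV collagen, differed by 2.31 and lost its call at matched depth (1.10). Lama2, a laminin chain of muscle, was at 1058, 499.7 and 448 CPM in Gdf10 Inmt fibroblasts and 399.7, 365 and 405 CPM in other Pdgfra-gated cells (0.66, not called). Of 17 proteases and inhibitors 2 were higher and 4 lower (median −0.33), against 2 and 2 of 17 at matched depth. Adamtsl3, an ADAMTS-like matrix protein, was at 211, 149 and 127 CPM in Gdf10 Inmt fibroblasts, against 24.1, 24.4 and 26.8 CPM in other Pdgfra-gated cells (2.64, 1.40 at matched depth, still called). Adamts4, an aggrecan-cleaving protease, differed by 1.55, and Mmp13, a collagenase, by −3.69 (−5.35 without replicate 3 and −2.26 at matched depth, on 17 UMIs).

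Chemokines and cytokines went both ways, with 7 of 23 higher and 5 lower (median 0.10), and 7 of 20 higher and 5 lower at matched depth. Cxcl12, which attracts and retains CXCR4-bearing cells, was at 1132, 2316 and 2488 CPM in Gdf10 Inmt fibroblasts, against 406, 627 and 478 CPM in other Pdgfra-gated cells. Every member sum lay above every other sum (log2 difference 1.92, SE 0.13, adjusted p = 2.53e-44). Il6, an inflammatory and muscle-active cytokine, was at 773, 801 and 1210.5 CPM in Gdf10 Inmt fibroblasts, against 183, 258 and 154 CPM in other Pdgfra-gated cells (log2 difference 2.23, SE 0.14, adjusted p = 2.15e-51). Cxcl10, a chemokine induced by interferon, was at 118, 503 and 366 CPM in Gdf10 Inmt fibroblasts, against 50.2, 54.0 and 41.6 CPM in other Pdgfra-gated cells (log2 difference 2.69). Ccl11, eotaxin (1.42), Cxcl9, another interferon-induced chemokine (1.54), Ccl19, which draws T cells and dendritic cells (1.38), and Tnfsf13b, the B-cell factor BAFF (2.25), were higher too. Few members carried Cxcl10 (31 of 118) or Cxcl9 (24 of 118). Of their UMIs, 63.9% and 85.3% lay in the 3 highest cells of each library. Cxcl5, a neutrophil chemokine, was at 3.1, 27.8 and 22.1 CPM in Gdf10 Inmt fibroblasts, against 218, 258 and 165 CPM in other Pdgfra-gated cells (−3.38, −1.57 at matched depth), Il34, a ligand of the CSF1 receptor, differed by −3.46 (−4.10 without replicate 1, −2.67 at matched depth), and Ackr3, a scavenger of CXCL12, by −1.29. Cxcl14 was at 670.2, 993 and 739.5 CPM in Gdf10 Inmt fibroblasts and 562, 461 and 315 CPM in other Pdgfra-gated cells, under the threshold at 0.88 and past it without replicate 1 (1.16).

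Growth factors for vessels, nerve and muscle had 10 of 25 higher and 6 lower (median 0.23), and 10 of 23 higher and 1 lower at matched depth. Kitl, stem cell factor, was at 335, 361 and 357 CPM in Gdf10 Inmt fibroblasts, against 54.6, 77.0 and 59.9 CPM in other Pdgfra-gated cells (log2 difference 2.47, SE 0.16, adjusted p = 3.57e-53). Penk, proenkephalin, the precursor of opioid peptides, was at 245, 82.3 and 92.1 CPM in Gdf10 Inmt fibroblasts, against 16.3, 10.7 and 10.7 CPM in other Pdgfra-gated cells (log2 difference 3.32, 2.03 at matched depth, still called). Replicate 1 was highest for Penk in both groups. Fgf10 (2.74, 2.13 at matched depth), the neurotrophin Ntf3 (2.31, 1.13 at matched depth), the angiogenic factor Vegfa (1.80), Gas6, a ligand of TAM receptors (1.42), and Cntfr, the receptor of ciliary neurotrophic factor (2.19), were higher in every library. Hgf, which activates muscle stem cells, was at 754, 167 and 250.4 CPM in Gdf10 Inmt fibroblasts, against 77.7, 72.3 and 92.1 CPM in other Pdgfra-gated cells. Of its UMIs 89.7% lay in the 3 highest cells of each library, and its log2 difference of 1.98 was 1.32 without replicate 1 and 2.57 at matched depth. Fgf7 differed by 1.36 (0.90 without replicate 3, not called), and Nrg1, neuregulin 1, by −2.89 on 5 UMIs, all in replicate 3 (−1.91 without replicate 2). The call of Nrg1 was lost in DESeq2 (−4.13) and at matched depth (−2.28).

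The insulin-like growth factor system had 2 of 13 higher and 3 lower (median 0.22), and 2 of 10 higher and 2 lower at matched depth. Igfbp3 was at 565, 605 and 898 CPM in Gdf10 Inmt fibroblasts, against 99.6, 95.9 and 91.5 CPM in other Pdgfra-gated cells (log2 difference 2.83, SE 0.15, adjusted p = 1.09e-75, 2.23 at matched depth). Igfbp5 was at 589, 601 and 699 CPM in Gdf10 Inmt fibroblasts, against 1474, 1954 and 2534 CPM in other Pdgfra-gated cells (−1.64). These binding proteins thus differed in opposite directions, each in 3 of 3 libraries. Igfbp6 differed by −1.19 (−0.79 without replicate 3, not called). Igf1 itself was at 1046, 1101 and 1470.0 CPM in Gdf10 Inmt fibroblasts and 608, 638 and 612 CPM in other Pdgfra-gated cells (0.95, under the threshold, and 1.02 and 1.00 without replicate 1 or 2, called).

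Of 21 WNT ligands and modulators 5 were higher and 3 lower (median 0.01), against 3 and 2 of 15 at matched depth. Rspo1, which amplifies WNT signals, was at 9.31, 20.6 and 24.7 CPM in Gdf10 Inmt fibroblasts, against 0.876, 0.779 and 0.890 CPM in other Pdgfra-gated cells (log2 difference 4.46, 3.33 at matched depth). Wnt5a, a ligand of the non-canonical branch, was at 99.3, 100.4 and 132 CPM in Gdf10 Inmt fibroblasts, against 15.5, 18.6 and 24.1 CPM in other Pdgfra-gated cells (log2 difference 2.50, 1.68 at matched depth). The receptor Fzd4 differed by 2.09 (1.33 at matched depth), and Wnt2 was lower by −2.35 (−3.02 without replicate 3). The inhibitors Sfrp1 (1.16) and Dkk2 (1.21) lost their calls at matched depth (0.98 and 0.36), and Sfrp1 also without replicate 3 (0.81).

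Called receptors and transcription factors were mostly higher. Of 19 receptors 6 were higher and 1 lower (median 0.52), against 2 and 0 of 17 at matched depth. Lifr, the receptor of leukaemia inhibitory factor, was at 127, 125 and 93.4 CPM in Gdf10 Inmt fibroblasts, against 36.2, 35.5 and 37.1 CPM in other Pdgfra-gated cells (log2 difference 1.65, adjusted p = 1.79e-18). Thrombomodulin Thbd (1.24), the angiotensin receptor Agtr1a (1.34) and the endothelin receptor Ednra (−1.82) were not called at matched depth (0.60, 0.54 and −0.85). Icam1 (1.40) was not called without replicate 3 (0.93). Of 26 transcription factors 6 were higher and 2 lower (median 0.43), against 4 and 0 of 25 at matched depth. Osr1, a factor of fibro-adipogenic progenitors, was at 248, 186 and 197 CPM in Gdf10 Inmt fibroblasts, against 57.9, 56.2 and 63.8 CPM in other Pdgfra-gated cells (log2 difference 1.81, SE 0.16, adjusted p = 4.01e-27). Nr2f2, the orphan receptor COUP-TFII, was at 155, 243 and 262 CPM in Gdf10 Inmt fibroblasts, against 60.4, 65.5 and 64.6 CPM in other Pdgfra-gated cells (1.80), and the homeobox factor Meox2 differed by 1.56. Zbtb16 (2.04) was not called at matched depth (0.92), and Gata6 (1.58) not without replicate 2 (0.92).

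Of 14 genes of dissociation stress tested, 2 were higher and 0 lower, where 4.04% of all genes were higher. The list's median of 0.77 was above that of all genes. None of 14 was called at matched depth (median 0.46), where 2.6% of all genes were higher, or with thinned cells (median 0.58). Fos was at 4235, 4033 and 4614 CPM in Gdf10 Inmt fibroblasts and 2357, 2576 and 2725 CPM in other Pdgfra-gated cells (0.75), and Egr1 differed by 0.98, both under the threshold; Egr1 passed in DESeq2 (1.02) and without replicate 2 (1.06). Socs3 (1.27), a feedback inhibitor of cytokine signals, and Zfp36 (1.10), which destabilises messenger RNA, were called but not at matched depth (0.90 and 0.69), and Zfp36 not without replicate 3 (0.98). Hspa1a, a heat shock protein, had the lowest value (−0.46, 0.06 without replicate 2 and −1.17, called, without replicate 3). The part of dissociation stress in the higher Il6 and Cxcl12 was not tested. Of 12 interferon-response genes 3 were higher and 0 lower (median 0.59), against 2 and 0 of 12 at matched depth. Gbp2, a guanylate-binding protein, was at 351, 145 and 162 CPM in Gdf10 Inmt fibroblasts, against 59.4, 53.1 and 60.2 CPM in other Pdgfra-gated cells (1.80), and Ifit1 differed by 1.56 (0.87 without replicate 2, not called). Iigp1, an interferon-inducible GTPase chosen after its values were seen, was at 1027, 1032 and 715 CPM in Gdf10 Inmt fibroblasts, against 149, 138 and 126 CPM in other Pdgfra-gated cells (2.73), and Irf1, likewise, differed by 2.09. Rsad2 had the lowest value of the list (−0.46, not called).

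Of 12 cell cycle inhibitors and senescence genes 1 was higher and 2 were lower (median −0.36), against 0 and 1 of 12 at matched depth. Gas1, a growth-arrest gene, was at 946, 986 and 1092 CPM in Gdf10 Inmt fibroblasts, against 414, 506 and 470.2 CPM in other Pdgfra-gated cells (1.12, 0.73 at matched depth and not called). Cdkn2a, which encodes the cell cycle inhibitor p16INK4a, had 3 UMIs in the members, against 34.2, 34.0 and 32.8 CPM in other Pdgfra-gated cells. Without matching on depth, its ratio was 0.0458 with a counting interval of 0.00946 to 0.134. Among markers of other cells, Abcc9 of mural cells differed by 2.06, S100b of Schwann cells by 1.64, and the tenocyte gene Fmod was lower by −2.26 (−3.44 without replicate 2, −2.85 at matched depth). C1qa differed by 1.67 on 22 UMIs, and the call was lost without replicate 2 (1.33), without replicate 3 (1.94) and at matched depth (0.91). Tnmd, which defines tenocytes, had 1 UMI in the members, and the Schwann cell gene Sox10 had 0.

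Set against the 1426 Smoc2 Abca8a cells, the members differed in 800 of 12100 genes, 397 higher (3.28%) and 403 lower (3.33%), together 6.61%. Injury-associated genes were again lower, 16 of 21 (median −2.26, against −0.00 over all genes). Of 19 detoxification enzymes, a list that holds Fmo2 of the label, 10 were higher (median 1.10). At matched depth these counts were 7 of 19 (median −1.19) and 2 of 17 (median 0.46), where 0.649% of all genes were lower and 1.15% higher. Spp1 was at 15.9, 21.0 and 13.2 CPM in Gdf10 Inmt fibroblasts, against 443, 683 and 336 CPM in Smoc2 Abca8a cells (log2 difference −4.86, adjusted p = 7.41e-10, −2.38 at matched depth). Osr1 was at 255, 190.5 and 201 CPM in Gdf10 Inmt fibroblasts, against 34.6, 39.9 and 37.2 CPM in Smoc2 Abca8a cells (log2 difference 2.50, adjusted p = 6.82e-08). Chrdl1 was at 149.8, 157 and 263 CPM in Gdf10 Inmt fibroblasts, against 22.9, 21.1 and 23.3 CPM in Smoc2 Abca8a cells (3.07). Of these, Spp1 was lower and Osr1 and Chrdl1 were higher in 3 of 3 libraries. Gria4 (5.51), Prdm6 (4.99), Hhip (4.93), Adh1 (2.60), Penk (2.37), Kitl (2.21), Il6 (2.21), Cxcl12 (1.76), Id3 (1.63), Igfbp3 (1.56) and C3 (1.31) were higher, and Brinp3 was lower (−4.93, −5.57 without replicate 2). At matched depth Gria4 was 4.51, Hhip 3.36, Adh1 1.78 and Brinp3 −3.11, all called. Sntg1, a syntrophin of neurons (5.11), was 4.0 without replicate 1 and 5.92 without replicate 3, and Gata6 (2.12) was 1.44 without replicate 2. Sntg1 was found in 20 of 118 members, with 86.7% of its UMIs in the 3 highest cells of each library. At matched depth 136 genes were called of 7550 tested (1.8%), and calls were lost for Col1a1 (−1.47, then −0.65), Fn1 (−1.92, then −0.85), Tnc (−5.32, then −1.84, and −6.17 without replicate 1), Aox3 (3.17, then 2.29), Lpl (1.17, then 0.62), Vtn (1.96, then 0.72), Fst (1.43, then 0.35), Wnt5a (2.00, then 0.90), Procr (2.10, then 0.84) and Ltbp1 (1.26, then 0.62). Opcml, a neural adhesion protein (1.46), was not called with thinned cells (0.86).

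Against the 5402 Pi16 cells, with at least 3 UMIs of Pi16, 529 of 13713 genes were higher (3.86%) and 500 lower (3.65%), together 7.50%. Of 13 universal fibroblast genes 8 were lower (median −2.39, against −0.05 over all genes), as were 8 of 12 at matched depth, where 192 of all 7963 genes tested were lower (2.41%), 3.62% were higher and 6.03% were called in all. Pi16 set both sides here, at most 2 UMIs in the members and at least 3 in the Pi16 cells. The universal list runs close to those gates at either depth, so its counts are a description. Sema3c was at 74.2, 87.9 and 132 CPM in Gdf10 Inmt fibroblasts, against 525, 427 and 654 CPM in Pi16 cells (log2 difference −2.43, adjusted p = 1.37e-17), and Dpp4 differed by −2.39. Adh1 was at 80.3, 83.1 and 56.8 CPM in Gdf10 Inmt fibroblasts, against 9.09, 7.11 and 9.19 CPM in Pi16 cells (log2 difference 3.12, 2.38 at matched depth, still called). Lpl (2.02), Cxcl12 (1.81), Chrdl1 (2.32) and Gria4 (5.02) were higher, and Brinp3 (−4.90, −3.76 at matched depth) was lower. Astn2, a membrane protein of neurons, was at 176, 79.5 and 58.1 CPM in Gdf10 Inmt fibroblasts, against 2.86, 3.17 and 4.0 CPM in Pi16 cells (4.81, 3.60 at matched depth), with replicate 1 highest. Lrrtm3, a synaptic adhesion protein (4.83), was not called without replicate 1 (2.38), and was 5.74 and 5.72 without replicate 2 or 3. Col1a1 (−1.47) and Tnc (−3.99, −4.89 without replicate 1) were lower, and at matched depth were not called (−0.83 and −1.38). Bmp6 and Akr1c18, a steroid dehydrogenase, had 0 UMIs in the members.

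The distance was widest from the 2560 Lrrc15 cells, which had at least 2 UMIs of Lrrc15, a gene of matrix-producing fibroblasts in injury and fibrosis. Here 990 of 13513 genes were higher (7.33%) and 997 lower (7.38%), together 14.7%. The Lrrc15 gate sets no limit on Pi16, Smoc2 or Abca8a. This class therefore shares cells with the classes above, and the comparisons are not independent. These Lrrc15 cells were also the deepest, and only 7, 9 and 9 of them in replicates 1, 2 and 3 could be matched to the members' depth. Complement genes, C7 of the label among them, had 12 of 15 higher and 1 lower (median 1.56, against −0.10 over all genes). Lipid genes, Apoe of the label among them, had 13 of 19 higher and 1 lower (median 1.62). Stress genes had 8 of 14 higher (median 1.18). At matched depth 6 of 11, 5 of 14 and 5 of 13 genes of these lists were higher, where 248 of all 3972 genes tested were (6.24%), 3.55% were lower and 9.79% were called in all. C3 was at 5331, 7423 and 7105 CPM in Gdf10 Inmt fibroblasts, against 1003, 1279 and 1089 CPM in Lrrc15 cells (log2 difference 2.55, adjusted p = 3.37e-13). Fn1 was at 737, 1958 and 1349.8 CPM in Gdf10 Inmt fibroblasts, against 7286, 7413 and 8138 CPM in Lrrc15 cells (log2 difference −2.59, adjusted p = 7.23e-11). Col1a1 differed by −1.95 and Tnc by −5.81, and Tnc was −6.62 without replicate 1, −5.17 without replicate 3 and −3.74 at matched depth. Chrm3, a muscarinic acetylcholine receptor, was at 140.0, 71.5 and 94.3 CPM in Gdf10 Inmt fibroblasts, against 0.453, 0.808 and 0.161 CPM in Lrrc15 cells (7.55), and Slco2b1, an organic anion transporter, differed by 7.52; without replicate 2 they were 8.56 and 8.29, and at matched depth Chrm3 was 8.33. Hhip (7.77, 8.67 without replicate 3), Gria4 (6.21, 4.23 at matched depth), Cxcl12 (2.61), Lpl (2.53), Egr1 (1.45), Chrdl1 (2.97, not called at matched depth at 2.84) and Fos (1.20, likewise 0.85) were higher. Uox, the urate oxidase gene, had 0 UMIs in the members.

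Of the 118 members, 64 had more Gdf10 than Inmt UMIs and 45 more Inmt than Gdf10, with 9 equal, a description of the genes of the rule. Gdf10-leaning cells numbered 4, 31 and 29 and Inmt-leaning cells 15, 20 and 10 in replicates 1, 2 and 3. Between the 2 kinds 1 gene was called of 4037 tested (0.0248%), and 245 had an unadjusted p under 0.05. That gene was Saa3, an acute-phase protein, at 338, 1099 and 216 CPM in Gdf10-leaning cells, against 8.21, 3.61 and 5.22 CPM in Inmt-leaning cells (log2 difference 6.51, adjusted p = 0.00204, higher in 3 of 3 libraries). Saa3 was found in 16 members, 97.9% of its UMIs lay in the 3 highest cells of each library, and the call was lost without replicate 3 (6.77); the difference was 7.25 without replicate 1 and 5.25 without replicate 2.

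Variation between members was described after thinning each cell to 5000 UMIs, with the members as chosen before thinning, of which 110 were deep enough, as were 8832 other Pdgfra-gated cells. The Fano factor is the variance of UMIs over their mean and would be 1 for counting noise alone. Saa3 had a Fano factor of 64.0 in the members and 52.7 in other cells. Cxcl12 had 25.8 in the members, where 85.5% of cells had a UMI, and 9.29 in other cells, where 59.0% had one. Postn had 22.9 in the members, with a UMI in 33.6% of them, and 7.10 in other cells, with a UMI in 84.5%. Gria4 had 8.78 and Hgf 11.7 in the members, against 2.37 and 7.06 in other cells. Vit had 1.83 in the members, against 2.10 in other cells. Vit was thus closer to counting noise in the members than Gria4, Hgf, Postn and Saa3, although the factor also grows with a gene's level. These factors describe cells, which are not replicates, and no test was made on them.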

How the data were processed

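Single-cell RNA-seq counts were deposited as filtered matrices of UMI counts per gene and barcode, made with Cell Ranger, version 7.0.0 per the file headers and 6.1.2 per the submitters' processing notes. Genome build and annotation are not given in the sources used. Of 32285 genes, duplicate symbols were summed to 32245, and 32158 IDs matched the reference table. The 3 libraries held 6068, 8643 and 4996 barcodes with 136519688, 192348779 and 104482261 UMIs, and shared 13, 13 and 10 barcodes in pairs. Recombination at 1:1 sets the ratio of immune to other cells, so no such ratio is given.

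Members and gene lists were chosen with earlier results of these data known. UMIs were summed per library and class and compared with edgeR 4.0.16 (R 4.3.3; TMM, low-count filter, quasi-likelihood test, library as a block, since both sums came from 1 library), with calls at an adjusted p under 0.05 and a log2 difference of 1 or more in either direction. That replicate block is the pairing of the design, since both classes of a library were captured together. Class levels use CPM per total UMIs, the fits TMM-scaled CPM. Named genes were those with the largest log2 differences among called genes that moved alike in 3 of 3 libraries, at a mean of at least 20 CPM on the higher side (12 in each direction against other Pdgfra-gated cells and 6 elsewhere), with gate genes, mitochondrial and ribosomal genes and unnamed loci left out. To these came, in each list, the largest and smallest difference and genes over 100 CPM. Some genes this rule names are not reported here. Further list genes and Gsn, Sparcl1, Iigp1 and Irf1 were named after their values were seen. Doublets were kept, and removing those marked by Scrublet, 3 of them members, was an alternative. Others were DESeq2 1.42.0, RLE size factors, no filter, no block, libraries left out, a stricter gate, thinning, reference cells matched on UMIs and a reference without Gdf10 or Inmt. The test was checked on simulated counts with the same spread for every gene, so the check does not cover genes carried by few cells. Intervals cover counting error only.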

Additional observations from a re-analysis of the deposited data

How the results depend on the processing

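Matching reference cells to the depth of the members changed the counts of called genes most, to 487 against other Pdgfra-gated cells, 136 against Smoc2 Abca8a cells, 480 against Pi16 cells and 389 against Lrrc15 cells; fewer cells and genes enter these fits. Thinning every cell to 5000 UMIs, an alternative chosen after seeing the data, gave 647, 360, 629 and 1237 calls. Between Gdf10-leaning and Inmt-leaning members, 34 genes were called with no low-count filter and 3 with DESeq2, and leaving out 1 library gave 0 to 11. Leaving out 1 library gave 969 to 1098 calls against other Pdgfra-gated cells, 622 to 913 against Smoc2 Abca8a cells, 868 to 969 against Pi16 cells, 1688 to 1907 against Lrrc15 cells, and a share of members of 1.04% to 1.62%. Without the replicate block, the pairing by library, the counts were 1154, 705, 914 and 2063, and 1 among the members; among the named genes it ended the call of Ctla2a only. With the rule applied to thinned cells, 64 cells were members in place of 118, and the share in replicate 1 was 0.554% in place of 0.993%, while the mean share was 0.993% in place of 1.41%. The other alternatives left the counts of called genes within 1.5 times of those reported. The stricter gate asked for at least 2 UMIs each of Gdf10 and Inmt. Against other Pdgfra-gated cells, it ended the call of 3 named genes and gave 2 others a call. The sign turned for 3 named genes that were not called: Hspa1a, at −1.17 to 0.062 with 1 library left out, Procr at matched depth (−0.28), and Comp, at −0.12 to 0.57 with 1 library left out, at matched depth (−0.28) and with thinned cells (−0.29). The cause was not tested. With 118 members, 20 of them in replicate 1, genes of few UMIs are the least certain.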
